A study of Mus musculus with 4 samples.

Results

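Imprinted genes are read mainly from the chromosome inherited from 1 parent, and this choice is held by methylation marks set in the germ line at control regions that govern clusters of neighbouring genes. Maternally expressed members of the group often restrain growth, as do the cell cycle inhibitor Cdkn1c and the scavenging receptor Igf2r, while paternally expressed members such as Igf2, Peg3, Mest and Dlk1 are best known from embryonic tissue and placenta. Most of them are reduced after birth, and cultured and tumor cells can lose or regain their expression.

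The 40 imprinted genes described here were chosen by symbol from the known imprinted loci, at a time when the differences between LLC-Chem and LLC pools were already known. Those differences are therefore given as a description, with no p-value for the 40 genes. All 40 were found among the 47729 genes of the deposited values, and 32 of them reached a mean of 1 RPM (reads per 1000000 counted reads), the limit above which differences were computed. The other 8 genes (Zim1, Phlda2, Ascl2, Magel2, Mkrn3, Zdbf2, Nap1l5 and Rasgrf1) are described by their levels only.

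RNA was sequenced from tumors of Lewis lung carcinoma (LLC) cells, a C57BL/6 mouse line, grafted under the skin of the back of C57BL/6 mice and collected on day 5. The control group (LLC) is labelled wild type, although the study also describes cells with the empty vector, and the other group (LLC-Chem) had been transfected with a pEFIN plasmid encoding a bioactive form of murine chemerin. Each group is 2 pools of 3 tumors. The study collected individual clones after selection, so that a difference between clones and an effect of chemerin cannot be told apart here. Both cell types and host mice are C57BL/6, so the parental allele of a read, and tumor and host RNA, cannot be told apart either, and a level says nothing about whether imprinting was kept.

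The values of each pool are multiples of a step that add up to 20010823 to 20011261 steps, so the actual depth is not given by the file. Under the assumption that reads had been rescaled to 20000000 per pool, fitted totals were 28470000 to 33990000 reads, at which 3 reads would correspond to 0.0883 to 0.105 RPM. All read numbers below are estimates under that assumption. This limit covers counting error only. Rarres2, which encodes chemerin, was at 102 and 98.2 RPM in LLC and 106 and 106 RPM in LLC-Chem tumors, with a log2 fold change of 0.08 (SE 0.09). Rarres2 was not called, and the groups are named as labelled. The endothelial markers summed to 180.0 to 203 RPM in LLC and 34.5 to 59.6 RPM in LLC-Chem pools, the mural markers to 183 to 217 and 40.3 to 61.1 RPM, and the leukocyte markers to 770.3 to 1047 and 275 to 505 RPM. Of these lists, 5 of 6, 4 of 4 and 3 of 4 tested markers were lower in LLC-Chem at an adjusted p under 0.05. The fibroblast list went both ways, with 1 of 6 markers higher and 2 lower, and muscle markers stayed at or under 1.35 RPM in sum, with Ckm, Myh4, Pax7 and Myod1 at 0. Adipocyte markers summed to 14.2 to 39.7 RPM with overlapping groups, keratinocyte markers to 2.05 to 4.45 RPM and neuron markers to at most 0.6 RPM. Of 3 tested adipocyte markers 1 was higher in LLC-Chem, Cfd (limma adjusted p = 0.0466). It was at 1.40 RPM in both LLC pools and at 15.1 and 4.10 RPM in LLC-Chem. The part of these cell types in the values below was not tested, and in bulk RNA fewer cells of a type and less RNA per cell cannot be told apart.

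The promoters shown here belong to the 2 places where neighbouring genes of the list that start head to head, or run antisense to each other, were both higher in LLC-Chem, and to Mest, which was called lower while its overlapping neighbour Copg2 was not. The sequences are from RefSeq on GRCm38.p6 and run from 250 bases before to 50 bases after the start, 5′ to 3′ on the gene's strand. Capitals mark TGCCGC, the core recognised by ZFP57, a zinc finger protein that protects imprinted methylation, searched on both strands (GCGGCA is the match on the other strand).
Peg3 (chr7:6730370-6730669, minus strand): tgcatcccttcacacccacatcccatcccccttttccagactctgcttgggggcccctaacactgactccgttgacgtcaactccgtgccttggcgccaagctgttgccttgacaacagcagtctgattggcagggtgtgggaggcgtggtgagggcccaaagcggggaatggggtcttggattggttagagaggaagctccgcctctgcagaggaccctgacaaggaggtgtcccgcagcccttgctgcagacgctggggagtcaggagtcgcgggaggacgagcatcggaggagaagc
Mest (chr6:30737800-30738099, plus strand): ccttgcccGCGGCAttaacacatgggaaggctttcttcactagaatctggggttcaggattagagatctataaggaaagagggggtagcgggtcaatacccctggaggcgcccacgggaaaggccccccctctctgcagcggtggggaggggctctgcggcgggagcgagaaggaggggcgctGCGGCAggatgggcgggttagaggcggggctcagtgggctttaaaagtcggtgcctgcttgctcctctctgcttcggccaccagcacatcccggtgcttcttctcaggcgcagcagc
Igf2r (chr17:12769657-12769956, minus strand): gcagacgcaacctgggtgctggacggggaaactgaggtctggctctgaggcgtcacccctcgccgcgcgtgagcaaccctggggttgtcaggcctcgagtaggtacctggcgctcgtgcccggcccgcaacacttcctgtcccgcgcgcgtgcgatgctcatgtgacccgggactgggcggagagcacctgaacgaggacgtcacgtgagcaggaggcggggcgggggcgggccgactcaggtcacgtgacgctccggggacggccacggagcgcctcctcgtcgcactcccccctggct
Airn (chr17:12741061-12741360, plus strand): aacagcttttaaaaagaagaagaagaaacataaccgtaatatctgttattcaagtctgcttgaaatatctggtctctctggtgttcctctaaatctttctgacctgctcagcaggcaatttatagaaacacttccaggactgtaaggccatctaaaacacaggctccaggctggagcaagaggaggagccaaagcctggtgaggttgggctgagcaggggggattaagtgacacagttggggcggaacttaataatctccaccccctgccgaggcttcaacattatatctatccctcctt

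The window of Usp29 shares 263 of its 300 bases with that of Peg3, on the other strand. The Mest window shown carried 2 matches to the motif, and the Peg3, Usp29, Igf2r and Airn windows carried 0. Another Mest window, at chr6:30733256-30733555, also carried 0 and held 8 CpG sites. Windows were found for 33 of the 40 genes, 53 windows in all, and 22.6% of them held the motif, against 11.6% of the 32851 windows of the whole table. The member windows held 0 to 48 CpG sites with a median of 17, against a median of 7 in all windows, and the 4 windows shown ran from 3 (Airn) to 34 (Igf2r). Several genes have overlapping windows, a match is a description and not a bound site, and the 7 genes without a window were Peg10, Sgce, H19, Cdkn1c, Rtl1, Impact and Peg13.

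Imprinted genes differed between the groups in both directions. Of the 32 tested genes, 9 were called higher and 7 lower in LLC-Chem, where a call is an adjusted p under 0.05 in limma's fit over 13694 genes. Over all genes tested, 9.54% were called higher, 13.5% lower and 23.0% in either direction. Nothing is read from the share among the 40 genes, since the list was drawn up with these differences known. The median log2 fold change of the 32 genes was -0.15, against -0.04 over all genes. The size without regard to sign had a median of 1.11 on the log2 scale, against 0.33 over all genes. Of genes known for paternal expression 5 were called higher and 5 lower of 17 tested, and of those known for maternal expression 4 were higher and 2 lower of 12.

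**Figure D1:**
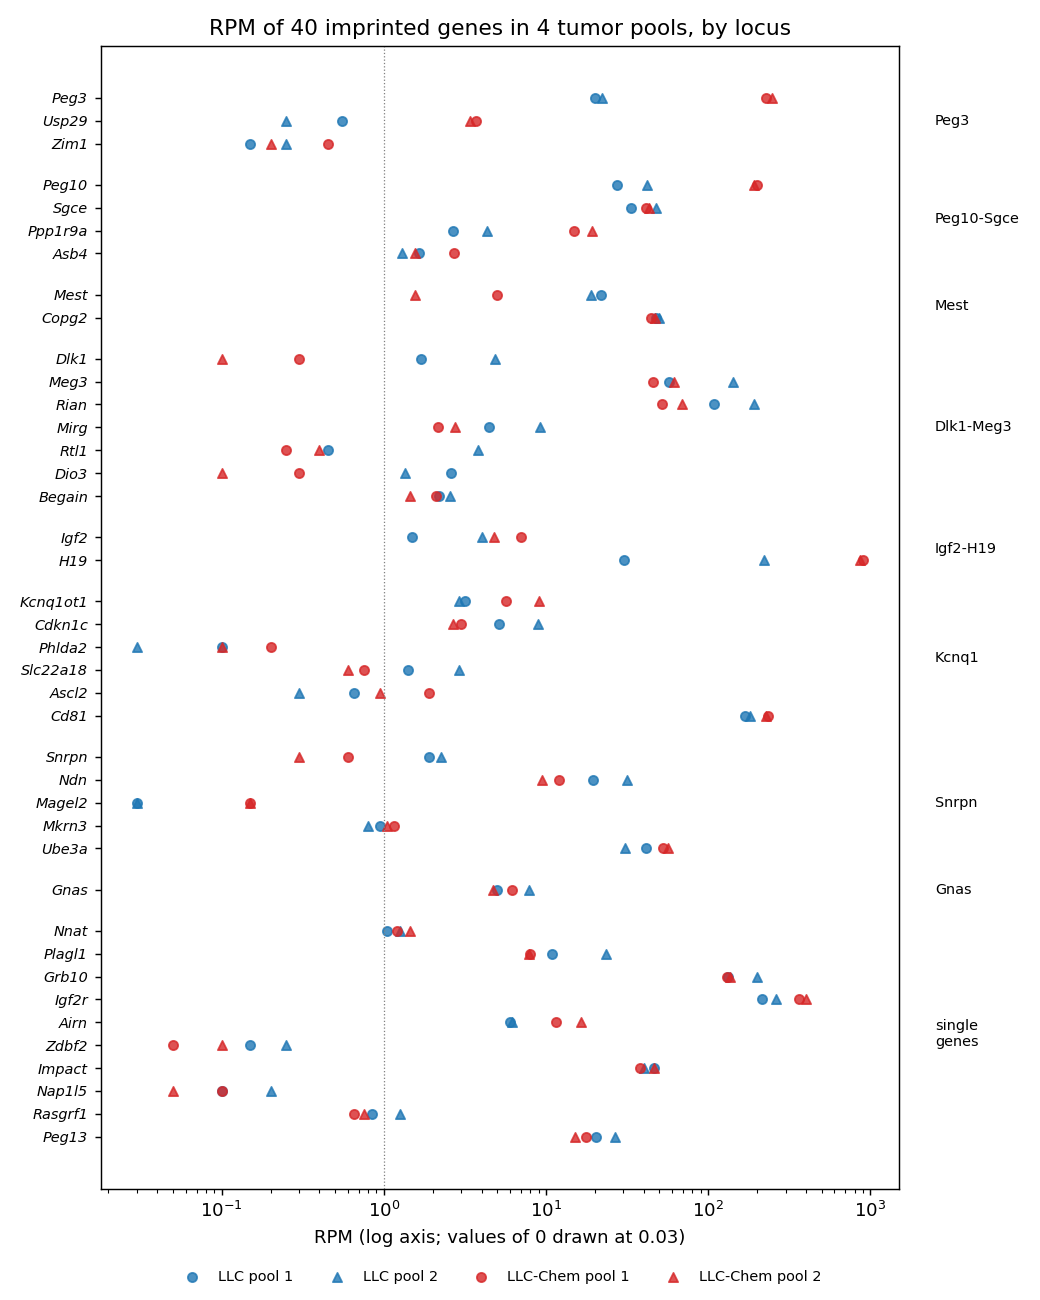
RPM on a log axis for the 40 imprinted genes, by locus, with a point for each of the 4 pools (blue LLC, red LLC-Chem, circles pool 1, triangles pool 2, values of 0 drawn at 0.03). The red points of Peg3, Peg10, Ppp1r9a and H19 lie to the right of the blue ones, those of Mest, Dlk1 and Dio3 to the left, and those of Sgce, Copg2 and Impact on top of them.

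**Figure D2:**
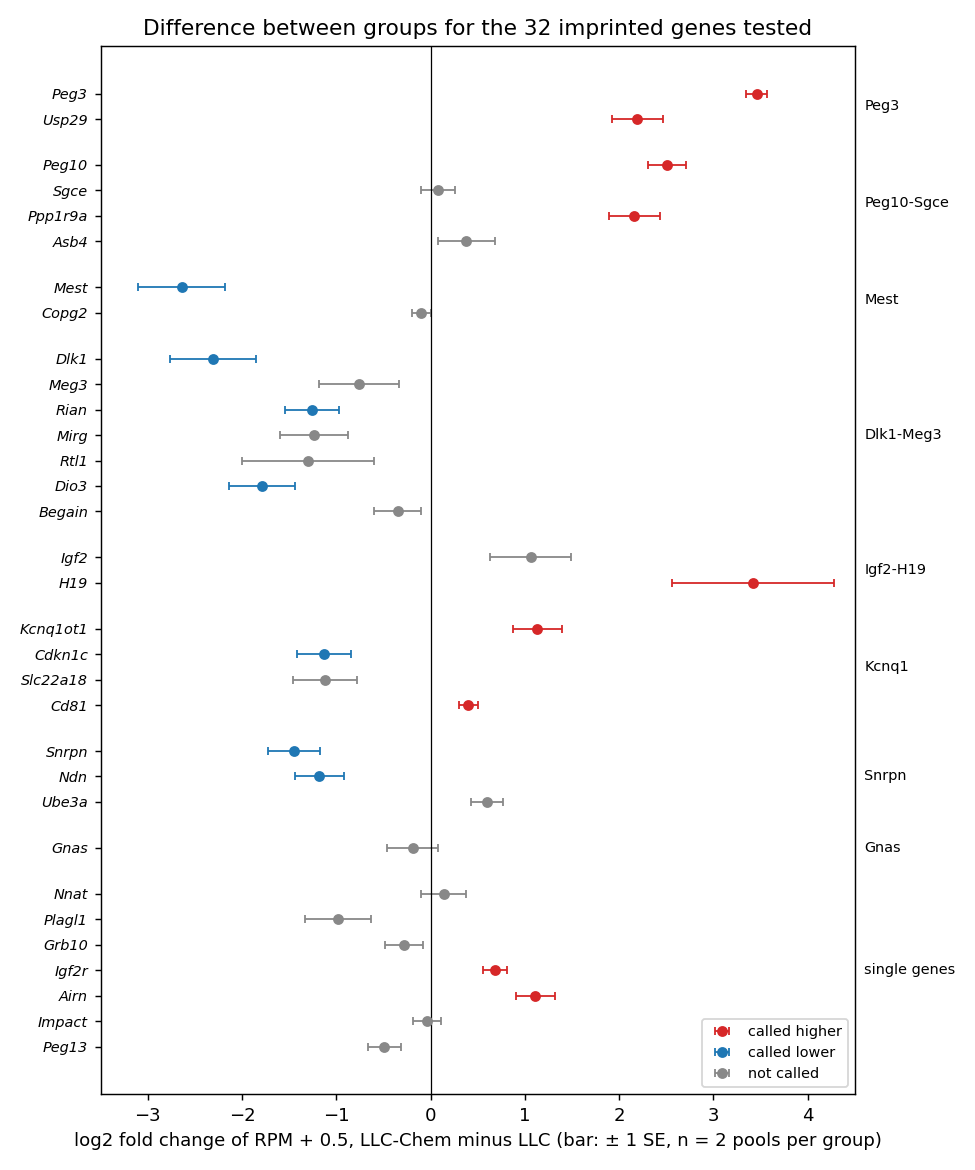
Log2 fold change of RPM + 0.5 (LLC-Chem minus LLC) for the 32 tested genes, with bars of 1 SE from 2 pools per group, red for genes called higher, blue for genes called lower and grey for the rest. Values run from -2.64 for Mest to 3.46 for Peg3, and the widest bar is that of H19 (SE 0.86).

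At the Peg3 locus both genes that were tested were higher in LLC-Chem tumors. Peg3 (chromosome 7, 6703892 to 6730431, minus strand) encodes a large zinc finger protein of the DNA-binding kind. It was at 20.1 and 22.2 RPM in LLC and at 227 and 248 RPM in LLC-Chem. The groups lie far apart and the pools of each are close, with means of 21.2 ± 1.45 and 238 ± 14.4 RPM (SD, n = 2), an 11.2-fold difference and a log2 fold change of 3.46 (SE 0.11). Usp29, a deubiquitinase gene, starts 147 bases away on the opposite strand, in the shared promoter shown above. It was weakly expressed, at 0.55 and 0.25 RPM in LLC (an estimated 16 and 7 reads) and at 3.70 and 3.40 RPM in LLC-Chem. Its log2 fold change was 2.19 (SE 0.27), and 14.8% of its exon bases lie under exons of Zim3 or Gm27675. Per kilobase of exon, Peg3 stood 49.7 to 120 times above Usp29 in all 4 pools, and this ratio overlapped between the groups. Zim1, a maternally expressed zinc finger gene of the same cluster, stayed between 0.15 and 0.45 RPM with overlapping groups.

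At the Peg10-Sgce locus the genes sharing a start region differed from each other. Peg10, a paternally expressed gene derived from a retrotransposon and needed in placenta, lies on chromosome 6 from 4747306 to 4760517. It was at 27.4 and 41.8 RPM in LLC and at 200.3 and 191.5 RPM in LLC-Chem. The groups did not overlap, and the means differed 5.66-fold (log2 fold change 2.51, SE 0.20). Sgce, which encodes epsilon-sarcoglycan and starts 99 bases from Peg10 on the opposite strand, was at 33.6 and 47.7 RPM in LLC and at 41.2 and 43.2 RPM in LLC-Chem. Its LLC-Chem pools lay between its LLC pools, with a log2 fold change of 0.08 (SE 0.18). The ratio of Peg10 to Sgce, per kilobase of exon, was 1.30 and 1.39 in the LLC pools and 7.73 and 7.05 in the LLC-Chem pools. The difference between the genes was not tested. Neither gene shares exon bases with another gene.

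Ppp1r9a, which encodes neurabin, an actin-binding partner of protein phosphatase 1, starts 156 kb beyond Peg10 and is maternally expressed in some tissues. It was at 2.65 and 4.30 RPM in LLC and 14.8 and 19.2 RPM in LLC-Chem, with a log2 fold change of 2.16 (SE 0.27). The ratio of Peg10 to Ppp1r9a, per kilobase of exon, was between 21.2 and 29.5 in the 4 pools, with overlapping groups. Asb4, a substrate adaptor for ubiquitin ligases that lies 636 kb from Peg10, was at 1.65 and 1.30 RPM in LLC and 2.70 and 1.55 RPM in LLC-Chem, and was not called.

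Mest had the lowest log2 fold change of the list on the scale of RPM + 0.5, although the ratio of mean RPM was larger for Dlk1 (16.4-fold lower), Dio3 (9.88-fold lower) and Rtl1 (6.54-fold lower, not called) than for Mest (6.27-fold lower). Dlk1 and Dio3 rested on an estimated 3 reads in LLC-Chem pool 2, and the LLC pools of Rtl1 lay 8.44-fold apart. Mest encodes a hydrolase of the endoplasmic reticulum that is abundant in mesoderm. Mest (chromosome 6, 30723547 to 30748465) was at 21.7 and 19 RPM in LLC and 4.95 and 1.55 RPM in LLC-Chem. The LLC-Chem pools were both lower but lay 3.19-fold apart, and the log2 fold change was -2.64 (SE 0.46). It was -1.93 without LLC-Chem pool 2 and -3.34 without LLC-Chem pool 1. Copg2, a coat protein gene that overlaps the end of Mest on the opposite strand, was at 47.8 and 49.8 RPM in LLC and 44.4 and 46.9 RPM in LLC-Chem (log2 fold change -0.10, SE 0.10). These genes share 23.1% of the exon bases of Mest, where reads cannot be told apart without strand.

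At the Dlk1-Meg3 locus all 7 genes had a log2 fold change below 0, against a median of -0.04 over all genes tested, and 3 of them were called lower, against 13.5% of all genes. Genes of a locus are not independent of each other. The locus holds paternally expressed protein genes and, on the maternal chromosome, a run of noncoding RNAs that host small nucleolar RNAs and microRNAs. Among the paternally expressed genes, Dlk1, a Notch-like transmembrane protein that holds back differentiation, was at 1.70 and 4.85 RPM in LLC and at 0.3 and 0.0999 RPM in LLC-Chem, or an estimated 52, 138, 10 and 3 reads. Its log2 fold change was -2.31 (SE 0.46), -2.95 without LLC pool 1 and -1.67 without LLC pool 2. Dio3, which encodes the deiodinase that inactivates thyroid hormone, lies 826 kb from Dlk1 at the far end of the locus. It was at 2.60 and 1.35 RPM in LLC and at 0.3 and 0.0999 RPM in LLC-Chem (log2 fold change -1.79, SE 0.35). In LLC-Chem pool 2 both genes thus rested on an estimated 3 reads. Rtl1, a gene derived from a retrotransposon, was at 0.45 and 3.80 RPM in LLC and 0.25 and 0.4 RPM in LLC-Chem. Its LLC pools differed 8.44-fold, and it was not called.

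The maternally expressed noncoding RNAs of the locus ranged from abundant (Meg3 and Rian) to low (Mirg). Meg3 was at 57.3 and 142 RPM in LLC and 45.5 and 61.8 RPM in LLC-Chem, with overlapping groups (log2 fold change -0.76, SE 0.42, not called). Rian was at 108 and 191 RPM in LLC and 51.7 and 68.6 RPM in LLC-Chem and was called lower (log2 fold change -1.26, SE 0.29), but not in limma without trend. Mirg was at 4.45 and 9.24 RPM in LLC and 2.15 and 2.75 RPM in LLC-Chem and was not called (log2 fold change -1.24, SE 0.36). Per kilobase of exon, the ratio of Mirg to Rian was 0.1 to 0.121 in the 4 pools, with overlapping groups. The ratio of Rian to Meg3 was 1.87 and 1.33 in LLC and 1.13 and 1.1 in LLC-Chem, so that the groups did not overlap, and this difference was not tested. The ratio of Meg3 to Dlk1 on the same scale was 10.5 and 9.16 in LLC and 47.4 and 194 in LLC-Chem. The values of the locus depended on the LLC pool used. Without LLC pool 2 the log2 fold change was -0.11 for Meg3, -0.21 for Rtl1, -0.75 for Mirg and -0.85 for Rian, and without LLC pool 1 it was -1.41, -2.39, -1.73 and -1.67. Dio3 went the other way, at -2.16 without LLC pool 2 and -1.42 without LLC pool 1. Begain, at the edge of the cluster, was at 1.45 to 2.55 RPM in all pools.

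H19, a maternally expressed noncoding RNA that carries the precursor of a microRNA, was the most abundant gene of the list in LLC-Chem tumors, at 357 RPM per kilobase of exon. H19 (chromosome 7, 142575529 to 142578143) was at 30.1 and 221 RPM in LLC and at 896 and 861 RPM in LLC-Chem. The LLC-Chem pools were nearly equal and both stood above the LLC pools, which differed 7.35-fold from each other. The log2 fold change was 3.42 (SE 0.86), 1.99 without LLC pool 1 and 4.84 without LLC pool 2, so its size rests on which LLC pool is used. H19 was not called by edgeR's quasi-likelihood test or in limma without trend. Igf2, a fetal growth factor that shares enhancers with H19 and starts 88.7 kb away, was low at 1.5 and 4.05 RPM in LLC and 7 and 4.75 RPM in LLC-Chem. It was not called (log2 fold change 1.06, SE 0.43, 0.46 without LLC pool 1 and 1.65 without LLC pool 2), and 64.5% of its exon bases lie under exons of other genes, where counting can drop reads. H19 and Igf2 were both lowest in LLC pool 1.

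At the Kcnq1 locus the genes went in different directions. Kcnq1ot1, the paternally expressed noncoding RNA that silences the neighbouring genes in cis, was at 3.15 and 2.90 RPM in LLC and at 5.70 and 9.10 RPM in LLC-Chem (log2 fold change 1.13, SE 0.26), and was not called when the replicate number was added to the fit as a block (the replicate block). It lies inside Kcnq1 on the other strand, so unspliced Kcnq1 RNA cannot be told apart from it unless strand was used in counting. Cdkn1c, a maternally expressed inhibitor of cyclin-dependent kinases, was at 5.15 and 8.90 RPM in LLC and 3 and 2.65 RPM in LLC-Chem. It was called lower (log2 fold change -1.13, SE 0.29), but in only 3 of the 9 alternatives that called more than 1 gene in all, and 30.7% of its exon bases overlap Gm44732. Slc22a18, a transporter gene, was at 1.40 and 2.90 RPM in LLC and at 0.75 and 0.6 RPM in LLC-Chem and was not called (log2 fold change -1.12, SE 0.34). Its log2 fold change was -0.70 without LLC pool 2 and -1.54 without LLC pool 1. Cd81, a tetraspanin at the edge of the domain, was at 168 and 182 RPM in LLC and 233 and 229 RPM in LLC-Chem (log2 fold change 0.40, SE 0.10). It was called higher, but not in limma without trend or with the replicate block. Phlda2, a regulator of placental growth, was at 0 to 0.2 RPM and an estimated 6 reads or fewer. Ascl2, a transcription factor of the placenta, was at 0.65 and 0.3 RPM in LLC and 1.90 and 0.95 RPM in LLC-Chem.

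At the Snrpn locus the paternally expressed genes of the list that were tested, Ndn and Snrpn, were called lower, as were 13.5% of all genes tested. Peg12, another imprinted gene near Mkrn3, was at 4.10 and 3.75 RPM in LLC and 2.65 and 2.80 RPM in LLC-Chem. It was not called (log2 fold change -0.46, limma adjusted p = 0.142). Ndn, which encodes necdin, a protein that restrains cell division, was at 19.4 and 31.6 RPM in LLC and 11.9 and 9.49 RPM in LLC-Chem (log2 fold change -1.18, SE 0.26), and was not called in limma without trend or with the replicate block. Snrpn, a splicing protein gene, was at 1.90 and 2.25 RPM in LLC and at 0.6 and 0.3 RPM in LLC-Chem (log2 fold change -1.45, SE 0.28). Of its exon bases 34.1% lie under exons of Snurf and other genes, and reads there may have been dropped. Ube3a, a ubiquitin ligase whose paternal copy is silent in neurons, was higher in both LLC-Chem pools, at 41.6 and 30.8 RPM in LLC and 52.5 and 56.8 RPM in LLC-Chem, without being called (log2 fold change 0.60, SE 0.17). It was called with TMM or median-of-ratios scaling and by edgeR's quasi-likelihood test. Magel2 was listed at 0 in both LLC pools and at 0.15 RPM, or an estimated 5 reads, in each LLC-Chem pool. Mkrn3 was at 0.8 to 1.15 RPM.

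Among the other genes, the receptor Igf2r and its antisense RNA were both higher in LLC-Chem. Igf2r, which carries Igf2 to the lysosome, was at 216 and 261 RPM in LLC and at 364 and 398 RPM in LLC-Chem (log2 fold change 0.68, SE 0.13). Airn, the paternally expressed RNA that starts 28.4 kb inside Igf2r and runs across its promoter, was at 6.00 and 6.20 RPM in LLC and at 11.5 and 16.3 RPM in LLC-Chem (log2 fold change 1.11, SE 0.21). Their exons share no bases, but unspliced Igf2r RNA over the exons of Airn cannot be told apart from Airn unless strand was used in counting. The ratio of Igf2r to Airn per kilobase of exon was 13.9 and 16.3 in LLC and 12.2 and 9.42 in LLC-Chem, so that the groups did not overlap, and this difference was not tested.

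Grb10, an adaptor that dampens insulin and growth factor signalling, was at 132 and 201 RPM in LLC and at 131 and 136 RPM in LLC-Chem and was not called. Plagl1, a zinc finger factor reported to act on other imprinted genes, was at 10.9 and 23.3 RPM in LLC and 7.95 and 7.85 RPM in LLC-Chem and was not called (log2 fold change -0.98, SE 0.35). Its log2 fold change was -0.45 without LLC pool 2 and -1.51 without LLC pool 1. Peg13, a noncoding RNA inside Trappc9, was at 20.3 and 26.4 RPM in LLC and 17.7 and 15 RPM in LLC-Chem. Impact, a regulator of translation, did not separate the groups, at 38.1 to 46.6 RPM. Gnas, the gene of the stimulatory G protein alpha subunit, was at 4.70 to 7.80 RPM, and 22.0% of its exon bases overlap Nespas or Gm20721, where counting can drop reads, so its level is uncertain. Nnat was at 1.05 to 1.45 RPM, Rasgrf1 at 0.65 to 1.25 RPM, Zdbf2 at 0.05 to 0.25 RPM and Nap1l5 at 0.05 to 0.2 RPM, the last 2 within a few reads of the limit of detection.

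Pools of the same group were then compared, as a description, since the same 4 values make up the group differences known when the genes were chosen. Of the 32 tested genes, 25 (78.1%) were higher in LLC pool 2 than in LLC pool 1, against 41.7% of all genes tested. The value in pool 2 was at least 2-fold that of pool 1 for 8 genes (25%), against 2.31% of all genes. They were Rtl1 (8.44-fold), H19 (7.35-fold), Dlk1 (2.85-fold), Igf2 (2.70-fold), Meg3 (2.48-fold), Plagl1 (2.13-fold), Mirg (2.08-fold) and Slc22a18 (2.07-fold). Usp29 alone was at least 2-fold higher in pool 1, at an estimated 16 against 7 reads. The LLC-Chem pools were at least 2-fold apart for 4 genes (12.5%), Mest, Dlk1, Dio3 and Snrpn, against 3% of all genes, and each was lower in pool 2. The estimated reads were 168 and 51 for Mest, 10 and 3 for Dlk1, 10 and 3 for Dio3 and 20 and 10 for Snrpn. Counting error is large at the reads of Dlk1, Dio3 and Snrpn. Summed markers were also lower in LLC-Chem pool 2 than in pool 1 for leukocytes (275 and 505 RPM), endothelial cells (34.5 and 59.6 RPM), mural cells (40.3 and 61.1 RPM) and adipocytes (14.2 and 39.7 RPM). All 6 fibroblast markers were also higher in LLC pool 2, with sums of 22753 and 43375 RPM in LLC against 30760 and 28190 RPM in LLC-Chem. The leukocyte markers summed to 1047 RPM in LLC pool 2 and 770.3 RPM in pool 1. Of 4 tested leukocyte markers 2 were higher in LLC pool 2, Csf1r and Adgre1, and Ptprc and Itgam were not. In LLC pools 2 and 1 the sums went the other way for endothelial (180.0 and 203 RPM), mural (183 and 217 RPM) and adipocyte markers (19.99 and 28.03 RPM). Those of keratinocytes (4.45 and 2.90 RPM), muscle (1.35 and 1.30 RPM) and neurons (0.6 and 0.3 RPM) were low and higher in pool 2. The part of these cells in the differences between pools was not tested.

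**Figure D3:**
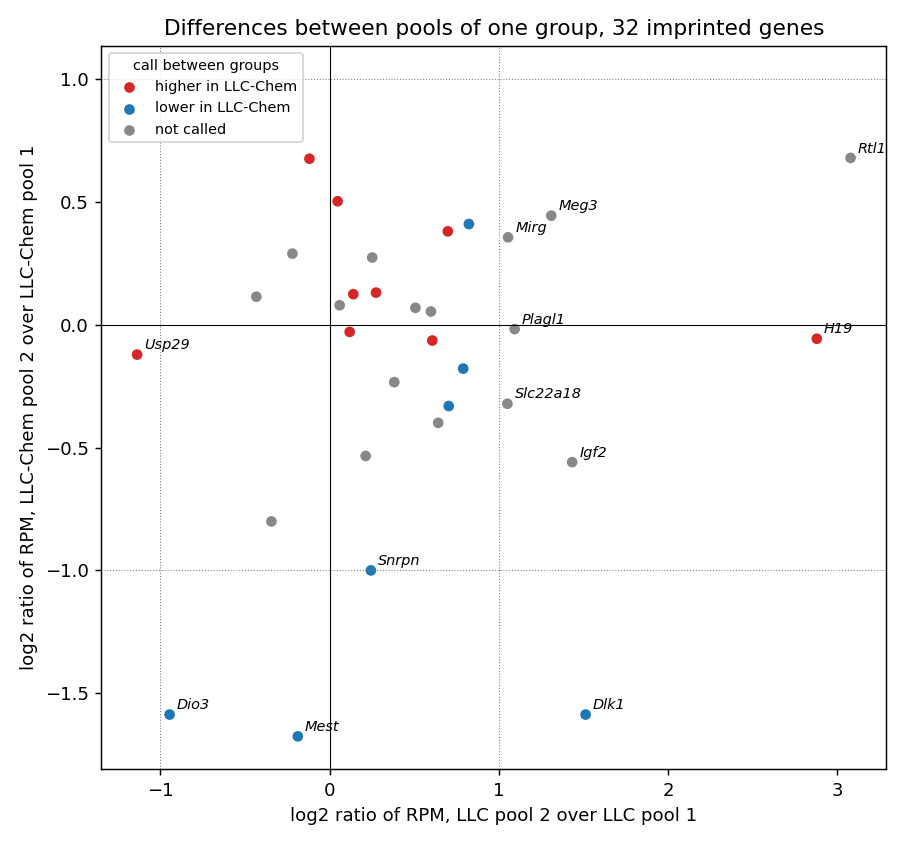
Log2 ratio of RPM between the pools of each group for the 32 tested genes, LLC on the x axis and LLC-Chem on the y axis, with dotted lines at a 2-fold difference and colours for the call between groups. Rtl1 and H19 lie far to the right (8.44-fold and 7.35-fold), and Mest, Dlk1 and Dio3 lie at the bottom.

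The genes around the imprinted loci were examined next, to see how far the differences extended. Within 200 kb of the 40 genes lay 75 further genes that were tested, of which 9 were called higher and 11 lower (26.7%, against 23.0% of all genes tested), with a median log2 fold change of -0.10. The largest rise was that of Trpm5, a cation channel gene 1219 bases from Cd81, which went from 0.2 and 0.5 RPM to 4.45 and 4.5 RPM, a log2 fold change of 2.57 (SE 0.27, limma adjusted p = 0.0113). Fam13a, near Nap1l5, rose by 1.42 on the log2 scale (limma adjusted p = 0.0185). The largest falls were Adam23, near Zdbf2 (-1.56 on the log2 scale, limma adjusted p = 0.0483), Ctsh, near Rasgrf1 (-1.53, limma adjusted p = 0.0205), Col1a2 (-1.46, limma adjusted p = 0.0383) and Tnfrsf23 (-1.38, limma adjusted p = 0.01). Col1a2, a fibroblast collagen gene on the Sgce side of the Peg10 cluster, and Peg10 thus went in opposite directions. Casd1, also on the Sgce side, rose by 0.55 (limma adjusted p = 0.0334).

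Between Ppp1r9a and Asb4, the unclassified transcript Gm44250 rose (log2 fold change 0.88, limma adjusted p = 0.0117), and the paraoxonase genes Pon3 and Pon2 did not pass (limma adjusted p = 0.213 and 0.636). Around H19, the muscle troponin genes Tnni2 and Tnnt3 and the gene Prr33 rose, by 1.19, 1.21 and 1.28 on the log2 scale (limma adjusted p = 0.0385, 0.0419 and 0.045). Tnni2 went from 1.20 and 2.20 RPM to 4.35 and 4.40 RPM, while of 6 muscle markers Ckm, Myh4, Pax7 and Myod1 were at 0, Mylpf was at 0.65 to 1.05 RPM and Acta1 at 0.0999 to 0.5 RPM. The part of muscle in these values was not tested. Mrpl23, which lies nearest to H19 of the tested neighbours, was not called (log2 fold change 0.29, limma adjusted p = 0.121). In the Kcnq1 domain, Kcnq1 itself was at 1.00 to 1.75 RPM, and Tssc4, next to Cd81 and Trpm5, was not called (limma adjusted p = 0.16). Beyond Phlda2, Cars and the receptor genes Tnfrsf22 and Tnfrsf23 fell, while Nap1l4, which is nearer, was not called (limma adjusted p = 0.36).

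**Figure D4:**
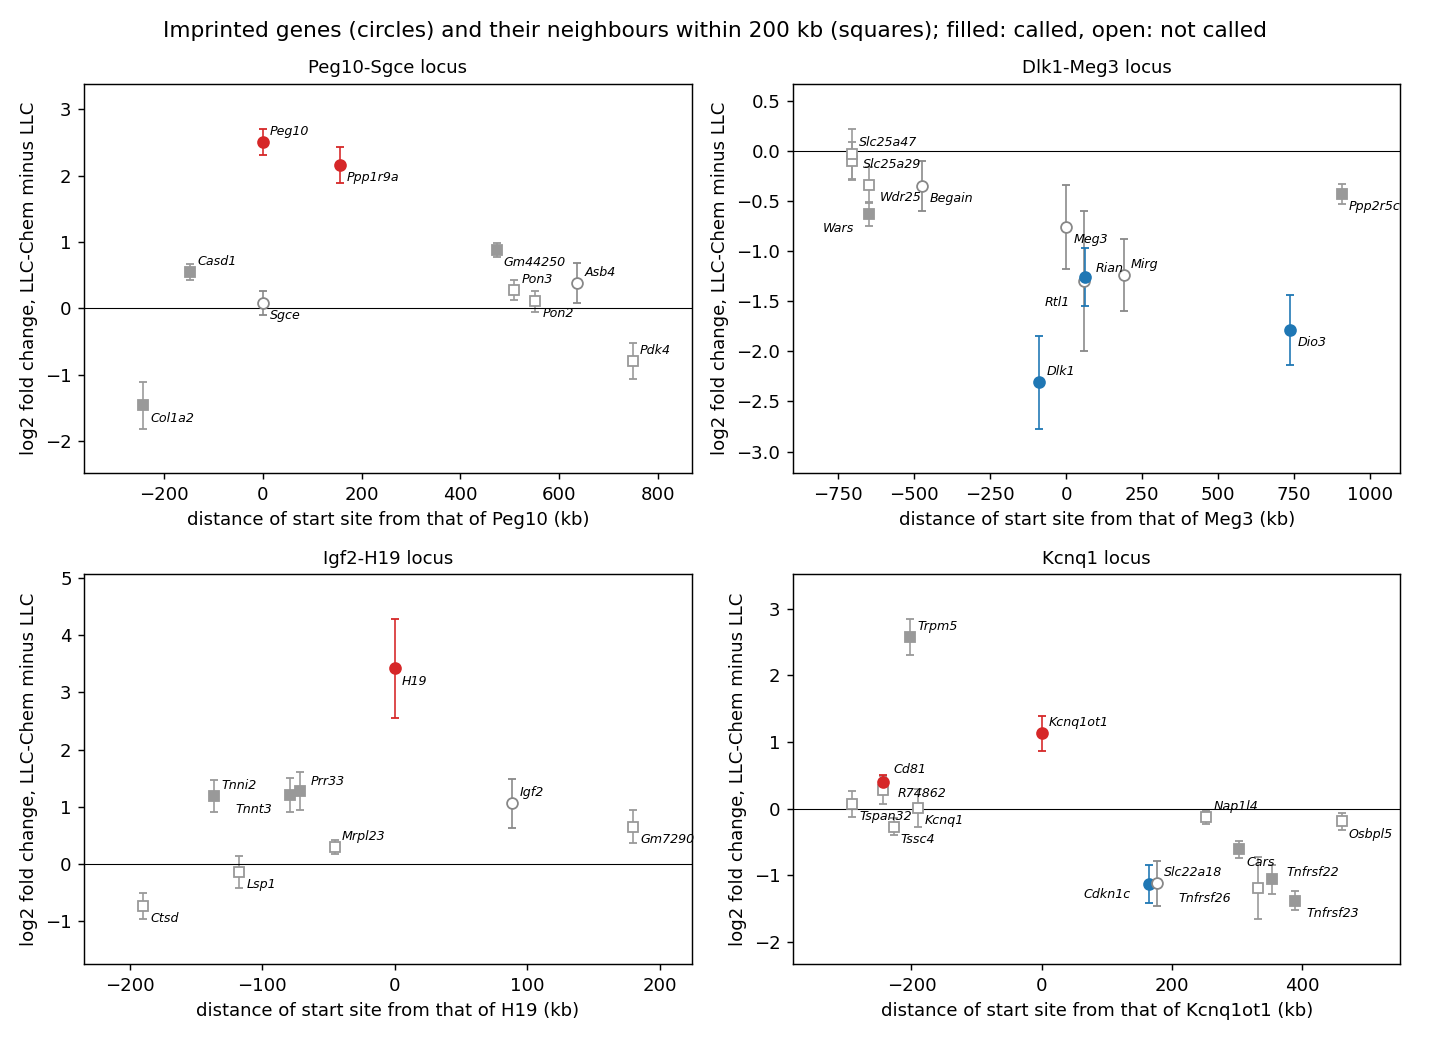
Log2 fold change (LLC-Chem minus LLC, bars of 1 SE) against the distance of each start site from that of Peg10, Meg3, H19 or Kcnq1ot1, for imprinted genes (circles) and their tested neighbours within 200 kb (squares), filled where called. Peg10 at 2.51 and Sgce at 0.08 sit at the same position, and Trpm5 at 2.57 stands above the other genes of the Kcnq1 locus.

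A further list of 47 genes reported as imprinted in mouse was looked up, of which 46 were found and 31 tested. Of these, 3 were called higher and 7 lower (32.3%, against 23.0% of all genes tested), with a median log2 fold change of -0.18. Slc38a4, an amino acid transporter, fell most, from 51.2 and 54.4 RPM to 14.4 and 9.69 RPM, a log2 fold change of -2.11 (SE 0.20, limma adjusted p = 0.01). Tfpi2, a protease inhibitor, went from 9.20 and 17.7 RPM to 4.10 and 3.35 RPM (-1.66, limma adjusted p = 0.0267), Htr2a, a serotonin receptor, fell by 1.53 (limma adjusted p = 0.0444) and Ano1, a chloride channel, fell by 1.28 (limma adjusted p = 0.0146). Zrsr1, a splicing factor gene within Commd1, rose by 0.82 (limma adjusted p = 0.0302), while Commd1 was not called (limma adjusted p = 0.804). Adam23, Casd1 and other genes of this list also lie among the neighbours above.

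Genes known to set, protect or erase imprinted methylation were also examined. Of 31 genes 28 were tested, 7 were called higher and 2 lower (32.1%, against 23.0% of all genes tested), with a median log2 fold change of 0.11. With the replicate number as a block, limma called 3 of the 28, and 11.8% of all genes tested. The methyltransferase Dnmt3a, which sets imprints in germ cells, rose from 43.5 and 54.2 RPM to 86.2 and 87.2 RPM, a log2 fold change of 0.83 (SE 0.13, limma adjusted p = 0.0179). The dioxygenases Tet1 and Tet2, which oxidise methylated cytosine, rose by 0.95 and 0.76 (limma adjusted p = 0.0317 and 0.0178), and Tet3 did not pass (0.45, limma adjusted p = 0.0623). Zfp445, which protects imprints together with Zfp57, rose by 0.92 (limma adjusted p = 0.027), and Zfp57 did not pass (0.88, limma adjusted p = 0.0555). Arid4b rose by 0.68 (limma adjusted p = 0.027). Dnmt3l, the cofactor of Dnmt3a, fell by 0.81 (limma adjusted p = 0.0424), from 7.55 and 6.15 RPM to 3.90 and 3.45 RPM. The maintenance methyltransferase Dnmt1 and its partner Uhrf1 were lower in both LLC-Chem pools but not called (-0.36 and -0.46, limma adjusted p = 0.0623 and 0.0651), and Trim28 and Ctcf were not called either (0.06 and 0.10, limma adjusted p = 0.663 and 0.459).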

How the data were processed

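RNA from 4 pools of 3 tumors (2 LLC, 2 LLC-Chem) was sequenced as paired ends from TruSeq libraries. The authors aligned reads by STAR (GRCm38), assigned them to genes of Ensembl release 84 by HTSeq, and deposited RPM. Tool versions and the use of strand are not given in the sources used here. Groups and replicate numbers are from the titles and column names.

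The deposited RPM are whole multiples of a step in 100% of values above 0 (tolerance 0.05 step), but the steps add up to nearly the same total in each pool. Library totals and reads were therefore estimated by assuming that reads had been rescaled to 20000000 per pool. Differences were computed with limma 3.58.1 in R 4.3.3 (eBayes with trend, two-sided) on log2(RPM + 0.5), which understates changes of low genes, keeping the 13694 genes that averaged 1 RPM or more, over which p-values were adjusted by Benjamini-Hochberg, and checked on simulated data. limma was used because RPM are not counts. Nothing says that the pools of a group came from separate cultures of cells. A permutation test of 2 pools against 2 cannot go below p = 0.33. Alternatives were other pseudocounts, filters and scalings, limma without trend, a replicate block, edgeR 4.0.16 on these estimated reads and leaving out each pool. The crossed block was added after the data were seen.

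The 40 genes, the neighbour window and the other lists were chosen with earlier results of these data known. All 40 genes are named, and of the neighbours and other lists the called genes with the largest changes, up to 6, and genes between members. Other genes of these lists named as not called (such as Nap1l4, Mrpl23, Commd1, Dnmt1, Uhrf1, Tet3, Zfp57, Trim28 and Ctcf) and the called genes Casd1, Cars, Tnfrsf22, Tnni2, Tnnt3 and Prr33 were chosen after their values were seen. Positions and exon lengths are from GENCODE M21 (GRCm38), which holds 98.9% of the 47729 identifiers, and promoters from RefSeq (GRCm38.p6). Plots were made with Python 3.11.15 and matplotlib 3.10.9.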

Additional observations from a re-analysis of the deposited data

How the results depend on the processing

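Among the 40 genes, 9 higher and 7 lower calls became 9 and 7 with pseudocounts of 0.1 and 1, 10 and 6 with TMM or median-of-ratios scaling, 9 and 6 with a filter at 0.3 RPM or with edgeR's quasi-likelihood test, and 7 and 4 in limma without trend, which lost Rian, H19, Cdkn1c, Cd81 and Ndn. None of the 16 called members changed sign in any of the 14 alternatives, and nothing is read from this. Their groups did not overlap in RPM, so leaving out a pool, adding a block or changing the pseudocount could not change the sign. In 9 alternatives more than 1 gene was called in all, and of the 16 called members Cdkn1c was called in the fewest of them, 3. Without a filter on low values limma called 0 of the members higher, 0 lower, 0 other imprinted genes, 0 control genes and 0 neighbours, and over 26260 genes it called 1 gene in all (at an unadjusted p under 0.05, 20 of 40 members and 28.2% of all genes). Without any single pool limma called 0 to 0 genes in each of these lists and 0 of all genes tested, with 13 to 24 of 32 members and 18.8% to 36.3% of all genes at an unadjusted p under 0.05, so that these fits show only sizes. The groups share replicate numbers, and the titles do not say whether same-numbered pools belong together. Same-numbered pools deviated with a correlation of -0.1405, which from 4 pools does not settle this. With the replicate block limma called 7 members higher and 5 lower, losing Kcnq1ot1, Cdkn1c, Cd81 and Ndn, and 5 other imprinted genes, 3 control genes and 11 neighbours in place of 10, 9 and 20, while calls over all genes went from 23.0% to 11.8%. With the numbers crossed, 11 members were called higher and 8 lower, and 28.5% of all genes were called. Without trend, 6 other imprinted genes, 13 neighbours and 15.8% of all genes were called. The levels of Dlk1 and Dio3 in LLC-Chem rest on few reads, whose number is an estimate. edgeR's test used such estimated reads throughout.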

Other observations

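By log2 fold change of RPM + 0.5, Peg3 and H19 stood at positions 6 and 7 from the top among the 13694 genes tested, Peg10 at position 26, Usp29 at 39 and Ppp1r9a at 44, and Mest was at position 45 from the bottom. In LLC-Chem tumors 1% of tested genes were as abundant as H19 or more, against 11.9% in LLC tumors, and for Peg3 the shares were 4.56% and 57.4%. These positions describe genes that were listed with the differences known.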
